A study of Mus musculus with 6 samples.

Results

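The genes described here are those whose symbol is Clec followed by a digit, the naming family of the C-type lectin domain proteins. On the array, 36 probe sets of 45037 carried exactly 1 such symbol, and they stood for 26 of 18193 genes. The members were taken by symbol alone, so beside membrane receptors they include the secreted proteins tetranectin (Clec3b) and stem cell growth factor (Clec11a), and Clec16a, a protein of autophagy. One further probe set, shared by the symbols Clec4b1 and Clec4a2, was left out.

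Spleens came from adult female mice of 2 F1 crosses, (AKR/J x FVB/NJ)F1 with 3 animals and (DBA/2J x FVB/NJ)F1 with 3 animals, and each spleen had its own Affymetrix array. All 6 animals carry 1 genome copy from FVB/NJ, so the groups differ in the other copy, which came from AKR/J or DBA/2J. No treatment, time or exact age is named in the labels, and the design asks for differences at baseline. They are called AKR F1 and DBA F1 below. Every difference is given in log2 units as AKR F1 less DBA F1, with positive values meaning a higher signal in AKR F1.

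C-type lectin receptors recognise sugars, lipids and proteins on microbes, dying cells and the body's own cells. On myeloid cells some of them activate through a tyrosine motif of their own or of the adaptors FcR gamma (Fcer1g) and DAP12 (Tyrobp), which recruit the kinase Syk, and others carry an inhibitory motif that recruits phosphatases. In the spleen such receptors mark dendritic cells, macrophages, platelets and sinus endothelium, and the Clec2 proteins serve as ligands of receptors on NK cells.

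For most Clec transcripts the difference between the crosses did not pass the test. In limma, 2 of the 36 probe sets were higher in AKR F1, those of Clec5a and Clec4n, and 1 was higher in DBA F1, a probe set of Clec16a (adjusted p under 0.05 over all probe sets). These 3 are 8.33% of the members, against 10.4% of all probe sets (5.14% higher in AKR F1 and 5.26% in DBA F1), so the family was called about as often as the array as a whole. The largest difference was 0.66 on the log2 scale, or 1.59-fold, at Clec5a. The 3 arrays of one cross lay wholly above those of the other at 14 of the 36 (38.9%, against 36.1% of all probe sets). AKR F1 lay above at 6, where 17.7% of all probe sets did so, and DBA F1 at 8, where 18.3% did. The median difference was -0.06 over the 36 and -0.02 over all probe sets, and the median absolute difference 0.22 and 0.16. An unadjusted p under 0.05 was reached by 17 of the 36 (47.2%, against 30.7% of all probe sets), 9 higher in AKR F1 and 8 in DBA F1. For the 33 that did not pass, the 95% intervals lay between -0.72 (Clec4b1) and 1.23 (Clec7a). Differences larger than the 0.66 of Clec5a thus remain possible at some of them. Some of these intervals lay wholly on 1 side of 0, as at Clec4n 1419627_s_at (0.12 to 0.57) and Clec4f (-0.59 to -0.14).

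With 1 probe set per gene, the one with the highest mean signal, and adjustment over 18193 genes, 3 of the 26 Clec genes passed: Clec5a (0.66, adjusted p = 0.00549), Clec4n (0.34, adjusted p = 0.0451) and, higher in DBA F1, Clec4f (-0.36, adjusted p = 0.0399). Over all genes 17.2% passed. Clec16a drops out at gene level because its probe set with the higher signal did not pass. Clec4f missed the threshold over probe sets (adjusted p = 0.0534).

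Of the 36 probe sets, 21 (17 genes) were above the median of their array in at least 1 sample, a share of 58.3% against 53.4% of all probe sets. Of these, 14 were above it on all 6 arrays and 7 on 1 to 5 arrays. Among the 21, 1 was higher in AKR F1 (Clec4n) and 1 in DBA F1 (Clec16a), or 9.52%, against 14.5% of the 24071 probe sets that met the same level rule (8.63% and 5.89% by direction). The other 15 lay at or under the median on every array, and 1 of them passed (Clec5a), where 5.69% of all such dim probe sets did. They include all probe sets of 9 genes, namely Clec1a, Clec2e, Clec2g, Clec2m, Clec4e, Clec4f, Clec5a, Clec12b and Clec18a. Clec5a, the member with the largest difference, is therefore among the dim ones. A probe set's signal depends on its probes, so signals of different probe sets are not compared as amounts of RNA.

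**Figure D1:**
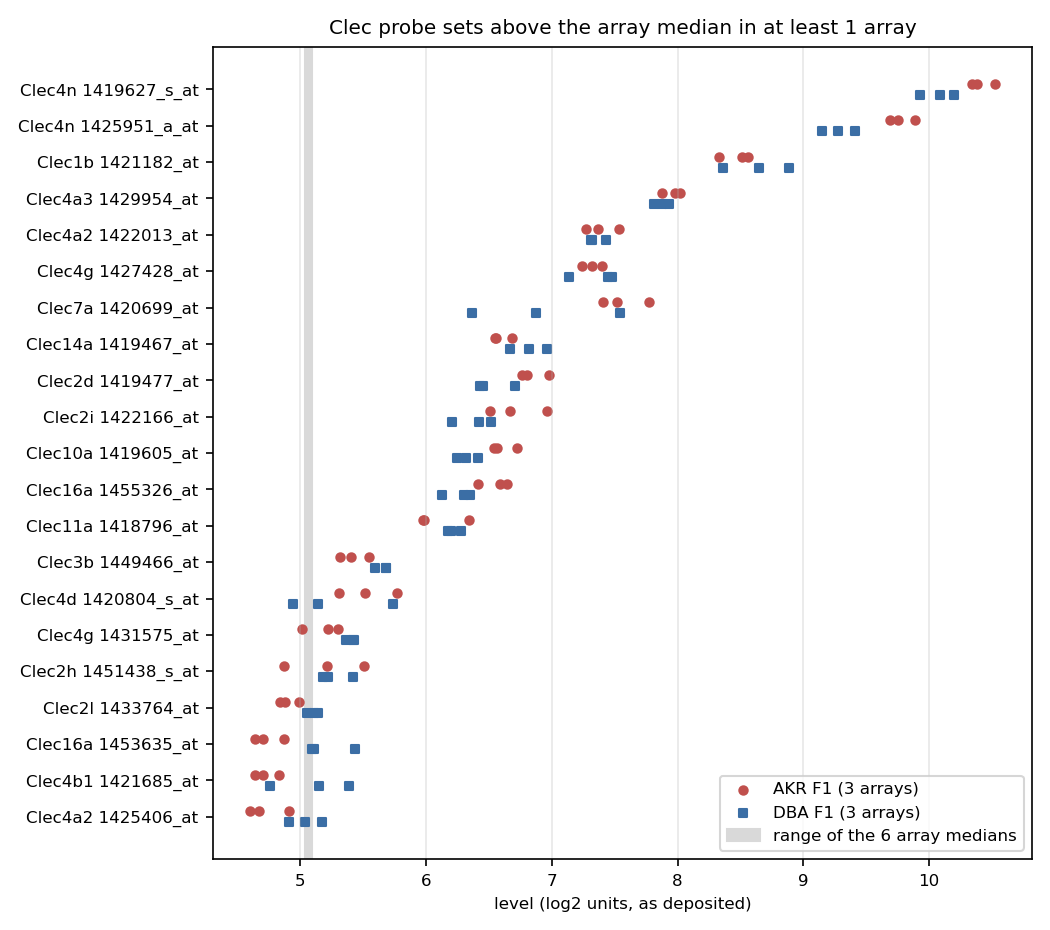
Signal of the 21 Clec probe sets above the array median in at least 1 array (log2 units; circles, 3 arrays of AKR F1; squares, 3 arrays of DBA F1; grey band, range of the 6 array medians, 5.04 to 5.10). The crosses are apart at the upper pair of probe sets, both of Clec4n, and the 3 DBA F1 values of Clec7a are spread from 6.37 to 7.54.

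The myeloid activating receptors held both members that were higher in AKR F1. Of 8 probe sets of 6 genes in this group, 2 passed, both higher in AKR F1, where 5.14% of all probe sets were called in that direction and 10.4% in either. With so few probe sets nothing particular to the group is read from this count. In the group 7 differences were positive, and the median was 0.30. Clec5a encodes MDL-1, a receptor of monocytes, macrophages and neutrophils that signals through DAP12. Its probe set (1421366_at) read 4.20, 4.34 and 4.24 in replicates 1, 2 and 3 of AKR F1 and 3.69, 3.59 and 3.50 in those of DBA F1. All AKR F1 values lay above all DBA F1 values, and no value reached the array median. The difference was 0.66 ± 0.09 (SE; adjusted p = 0.00645 in limma), with a 95% interval of 0.47 to 0.86. Clec5a passed whichever array was left out (adjusted p from 0.0052 to 0.0312).

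The sequence upstream of Clec5a is shown because it was the one member called in every fit with an array left out. It is the 250 bases before the RefSeq transcription start, GRCm38.p6, chr6:40585806-40586055, minus strand, read 5′ to 3′ on the gene's strand. Capitals mark matches to GAGGAA, the core of the site bound by the myeloid factor PU.1, or to its reverse complement TTCCTC.

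Clec5a: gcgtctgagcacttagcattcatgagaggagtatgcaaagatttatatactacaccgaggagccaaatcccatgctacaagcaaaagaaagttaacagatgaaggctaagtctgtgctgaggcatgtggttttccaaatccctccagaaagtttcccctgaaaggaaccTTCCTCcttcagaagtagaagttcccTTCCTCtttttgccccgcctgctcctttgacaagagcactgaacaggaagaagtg

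The motif matched at 2 places here, both as TTCCTC, starting at -81 and -55 from the start site, and the matches do not overlap. The same letters were present on either strand in 23.3% of 32851 RefSeq windows of this length. Of 25 windows upstream of 22 Clec genes, 12 held it (48%). A match describes these letters only, and no binding was measured.

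Clec4n encodes Dectin-2, a receptor for fungal mannans that signals through FcR gamma. Its probe set 1425951_a_at read 9.69, 9.75 and 9.89 in AKR F1 and 9.41, 9.15 and 9.28 in DBA F1. The crosses did not overlap, and the difference was 0.50 ± 0.10 (adjusted p = 0.0228), or 1.41-fold. The other Clec4n probe set, 1419627_s_at, read 10.34, 10.38 and 10.52 against 10.09, 9.92 and 10.20. Here too the crosses did not overlap, but the difference of 0.34 ± 0.10 did not pass over all probe sets (adjusted p = 0.0604). With 1 array left out, 1425951_a_at passed only without replicate 1 of DBA F1 (adjusted p = 0.0162), and its adjusted p was 0.0566 to 0.0741 in the other 5 fits.

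Clec7a encodes Dectin-1, the receptor for fungal beta-glucans, which carries its own activating motif. Its probe set read 7.77, 7.41 and 7.52 in AKR F1 and 7.54, 6.37 and 6.88 in DBA F1. Replicate 1 of DBA F1 lay within the range of AKR F1, and the other 2 lay below it. The difference of 0.64 ± 0.26 did not pass (adjusted p = 0.139), and its 95% interval ran from 0.04 to 1.23. Without replicate 1 of DBA F1 the difference was 0.94 (adjusted p = 0.0177), while the adjusted p reached 0.32 among the fits without another array.

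Clec4d and Clec4e encode MCL and Mincle, partner receptors for mycobacterial glycolipids. Clec4d read 5.77, 5.31 and 5.52 against 5.73, 4.94 and 5.14, and the crosses overlapped (0.26 ± 0.20, adjusted p = 0.411). As at Clec7a, replicate 1 was the highest of DBA F1. Both Clec4e probe sets lay under the array median throughout, with differences of 0.23 ± 0.21 and 0.02 ± 0.08 that did not pass. Clec4b1, which encodes the FcR gamma-linked receptor DCAR, was the one member of the group with a negative value (-0.37 ± 0.15, adjusted p = 0.138).

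**Figure D2:**
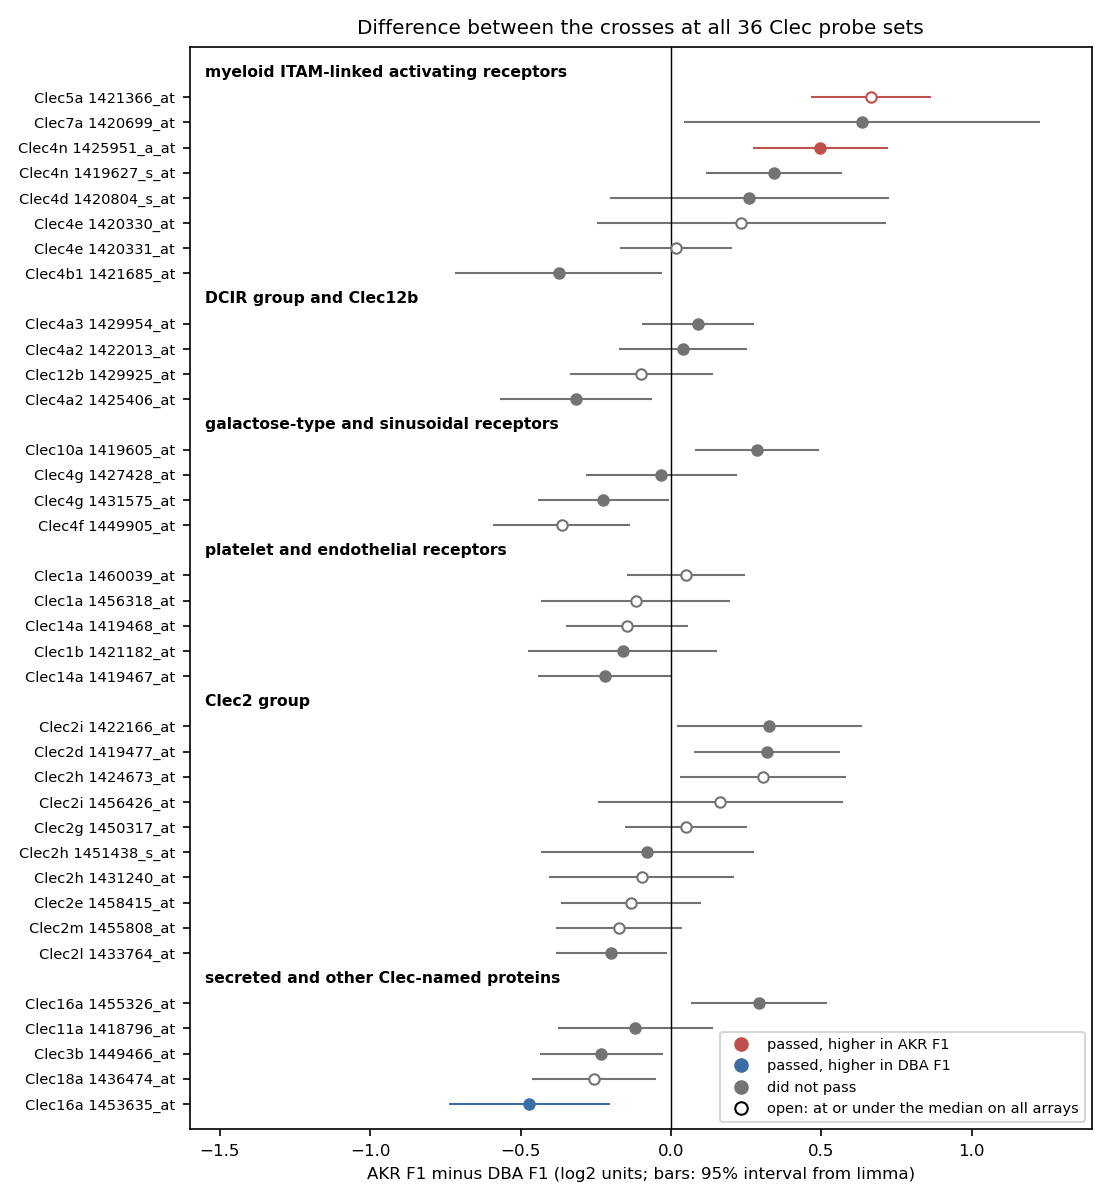
Difference between the crosses at all 36 Clec probe sets, by group (log2 units; points, AKR F1 minus DBA F1; bars, 95% interval from limma; open points lie at or under the array median on all arrays). Of the 8 probe sets of activating receptors, 7 lie to the right of 0, and the 3 coloured points mark Clec5a, Clec4n and Clec16a.

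Markers of the cells that carry these receptors are given beside them, and their part in the differences was not tested. Of 14 genes of macrophages and monocytes, 3 were higher in AKR F1 and 0 in DBA F1 (6 and 0 at an unadjusted p under 0.05 in limma). Over all genes, each at its probe set with the highest mean, 12.5% passed and 6.29% were higher in AKR F1. In the list 9 differences were positive and 5 negative. The mean level of the list was 9.15 to 9.33 in AKR F1 and 8.99 to 9.13 in DBA F1. The 3 called were the marginal zone scavenger receptor Marco (0.66), Cd5l (0.71) and Timd4 (0.73). The macrophage receptors Csf1r (0.20) and Adgre1 (0.05) did not pass, nor did Cd14 (-0.36) and Siglec1 (-0.14). Of 11 neutrophil genes 0 passed (also 0 at an unadjusted p under 0.05), and the list's mean was 7.48 to 7.87 and 7.28 to 8.47. Replicate 1 of DBA F1 was the highest for the neutrophil list, at 8.47. In AKR F1 the list read 7.48, 7.87 and 7.84 in replicates 1, 2 and 3. The list's mean was thus lowest in replicate 1 there, while Clec7a and Clec4d were highest in that replicate. Its genes did not all follow the mean. Csf3r (7.97, 7.37 and 7.67 in AKR F1), Cxcr2 (5.58, 5.42 and 5.42) and Mmp8 (5.03, 4.91 and 4.83) were highest in replicate 1. Ngp, Camp, Ltf, Elane, Mpo, S100a8 and S100a9 were lowest there, and Mmp9 lay between. In bulk spleen, fewer cells of a type and less RNA per cell cannot be told apart.

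The adaptors and enzymes downstream of the activating receptors were taken from a list of 25 genes, 20 of which were analysed here through probe sets with 1 symbol. Of their 43 probe sets, 3 passed, all higher in AKR F1, and 0 were higher in DBA F1 (9 and 0 at an unadjusted p under 0.05 in limma). This is 6.98%, against 10.4% of all probe sets. The median difference was 0.11, against -0.02 over all probe sets and 0.08 over the 24071 above the array median in any sample. Over all probe sets at a mean level of 7.53 to 8.58, where the list's mean lay, the median was 0.12. The list's own probe sets ran from a mean in AKR F1 of 3.37 (Nfatc2 1440426_at) to 11.42 (Tyrobp). This bin therefore does not match them by level, and the part of level in the list's median was not tested. Syk, the kinase that the receptors recruit, accounted for 2 of the 3. Its probe set 1418262_at read 10.06, 10.06 and 10.13 in AKR F1 and 9.62, 9.55 and 9.45 in DBA F1, with no overlap (0.54 ± 0.08, adjusted p = 0.0104), and passed whichever array was left out. The probe set 1425797_a_at differed by 0.56 ± 0.10 (adjusted p = 0.0167) and passed in 2 of 6 such fits. The other 2 Syk probe sets differed by 0.37 (adjusted p = 0.0601) and 0.41 (adjusted p = 0.357).

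The third was Rel, an NF-kappa-B subunit, which read 6.69, 6.95 and 6.91 against 6.52, 6.33 and 6.36 (0.45 ± 0.10, adjusted p = 0.033) and passed in 2 of 6 fits with an array left out. The adaptors themselves did not pass. Fcer1g, the partner of Dectin-2, differed by 0.11 ± 0.09 (adjusted p = 0.433), Tyrobp, the partner of MDL-1, by 0.22 ± 0.10 (adjusted p = 0.175) and Hcst by 0.07 ± 0.10 (adjusted p = 0.681). Syk also acts in B cells, and the part of these cells in its difference was not tested. Of 8 B cell genes 2 were higher in AKR F1, where 12.5% of all genes passed and 6.29% were higher in that cross. The B cell list's mean was 10.75 to 10.92 in AKR F1 and 10.48 to 10.77 in DBA F1.

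The receptors of the DCIR group, whose founding member carries an inhibitory motif, and Clec12b held 4 probe sets, and 0 passed in limma (1 at an unadjusted p under 0.05). The shares over all probe sets were 10.4% and 30.7%. Clec4a2, which encodes DCIR, had 2 measured probe sets that disagreed. At 1422013_at the values were 7.27, 7.53 and 7.37 in AKR F1 and 7.43, 7.31 and 7.32 in DBA F1, a difference of 0.04 ± 0.09 with a 95% interval of -0.17 to 0.25. At 1425406_at, near the array median, they were 4.91, 4.67 and 4.60 against 4.91, 5.04 and 5.18 (-0.32 ± 0.11, adjusted p = 0.0984). Clec4a3 differed by 0.09 ± 0.08, with an interval of -0.10 to 0.28. Clec12b lay between 2.98 and 3.30 on the 6 arrays.

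Clec10a encodes MGL1, a receptor for galactose-type sugars on macrophages and dendritic cells. It read 6.54, 6.72 and 6.57 in AKR F1 and 6.24, 6.41 and 6.32 in DBA F1. The crosses did not overlap, yet the difference of 0.29 ± 0.09 did not pass (adjusted p = 0.0747). Clec4f, known as a receptor of liver macrophages, ran the other way, at 4.13, 4.09 and 4.36 against 4.66, 4.53 and 4.49 (-0.36 ± 0.10), under the array median throughout. Clec4g encodes LSECtin of sinusoidal endothelium. Its probe set 1427428_at differed by -0.03 ± 0.11 and 1431575_at by -0.22 ± 0.10 (adjusted p = 0.151), and neither passed.

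For comparison, 6 of 27 genes in a list of C-type lectin genes with other names were higher in AKR F1 and 0 in DBA F1 (22.2%, and 9 and 1 at an unadjusted p under 0.05 in limma). Here each gene was taken at its probe set with the highest mean and p was adjusted over all probe sets, a threshold that 12.5% of all genes passed (6.29% higher in AKR F1). They were the dendritic cell lectin Cd209a (0.70), Cd209d (0.82), langerin (Cd207, 0.40), Cd302 (0.28), thrombomodulin (Thbd, 0.48) and the NK receptor chain Klrd1 (0.97). The difference in frequency from the Clec genes was not tested. Of 14 dendritic cell genes, 3 were higher in AKR F1 (Siglech, Zbtb46 and Ccr9) and 0 in DBA F1 (5 and 0 at an unadjusted p under 0.05), and the list's mean was 7.99 to 8.04 against 7.72 to 7.87.

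**Figure D3:**
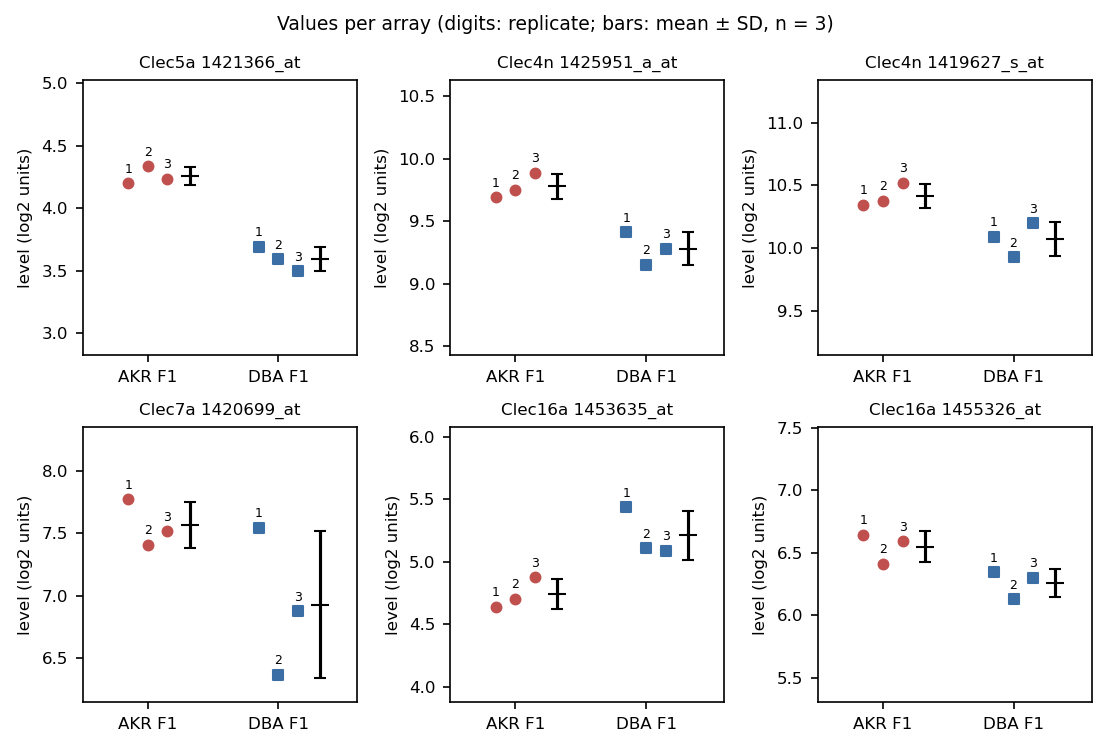
Values per array at 6 Clec probe sets (log2 units; every panel spans the same number of units; digits give the replicate; bars, mean ± SD, n = 3 per cross). Clec5a and both Clec4n probe sets separate the crosses, Clec7a does not because replicate 1 of DBA F1 reads 7.54, and the 2 Clec16a probe sets lie in opposite directions.

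Among the platelet and endothelial members, 0 of 5 probe sets passed in limma, also 0 at an unadjusted p under 0.05. The shares over all probe sets were 10.4% and 30.7%. Clec1b encodes CLEC-2, the platelet receptor for podoplanin. It read 8.33, 8.56 and 8.52 in AKR F1 and 8.89, 8.64 and 8.36 in DBA F1, and the crosses overlapped (-0.16 ± 0.14, adjusted p = 0.455). The mean level of 11 platelet and megakaryocyte genes was 7.96, 8.21 and 7.96 against 8.57, 8.22 and 8.12. Replicate 1 of DBA F1 was highest for both. Of those platelet genes 0 passed (0 higher in AKR F1 and 4 higher in DBA F1 at an unadjusted p under 0.05), and all 11 differences were negative. Podoplanin itself (Pdpn) differed by 0.07 ± 0.18. The endothelial receptor Clec14a differed by -0.22 ± 0.10 and -0.15 ± 0.09 at its 2 probe sets, and neither passed. Of 8 endothelial genes 2 were higher in AKR F1 (Tek and Kdr) and 0 in DBA F1, and all 8 differences were positive, unlike those of Clec14a. Over all genes 12.5% passed at this threshold, and 6.29% were higher in AKR F1. Both Clec1a probe sets lay under the array median.

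The Clec2 group had 10 probe sets of 7 genes, of which 0 passed in limma (3 higher in AKR F1 and 1 higher in DBA F1 at an unadjusted p under 0.05), with 5 positive and 5 negative differences. The shares over all probe sets were 10.4% passed and 30.7% at the unadjusted threshold. Clec2d encodes Clr-b, the ligand by which healthy cells restrain NK cells. It read 6.98, 6.80 and 6.76 in AKR F1 and 6.71, 6.45 and 6.43 in DBA F1. There was no overlap, and the difference of 0.32 ± 0.11 did not pass (adjusted p = 0.0865). Without replicate 1 of DBA F1 it was 0.41 (adjusted p = 0.0417, against up to 0.221 without another array). Clec2i, which encodes Clr-g, read 6.96, 6.67 and 6.51 against 6.52, 6.21 and 6.42, with overlap (0.33 ± 0.13, adjusted p = 0.141). Clec2l (-0.20 ± 0.08) and the measured probe set of Clec2h (-0.08 ± 0.15) did not pass, and neither did 2 dim Clec2h probe sets (0.31 and -0.10). The NK receptor genes of the same axis, Klrb1b (-0.08 ± 0.26) and Klrb1f (0.22 ± 0.12), did not pass. Both lay under the array median on every array, which limits what they can show. In a list of 8 NK cell genes 3 were higher in AKR F1, among them Klrd1. Over all genes 12.5% passed at this threshold, and 6.29% were higher in AKR F1.

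Clec16a was the member whose measured probe sets lay furthest apart. The probe set 1453635_at read 4.64, 4.70 and 4.87 in AKR F1 and 5.44, 5.11 and 5.09 in DBA F1. All DBA F1 values were above all AKR F1 values (-0.47 ± 0.12, adjusted p = 0.0424), but the call was lost whichever array was left out (adjusted p from 0.0611 to 0.124). The probe set 1455326_at read 6.65, 6.41 and 6.59 against 6.35, 6.13 and 6.30, again without overlap and in the opposite direction (0.29 ± 0.10, adjusted p = 0.0908). Of the secreted members, tetranectin (Clec3b) read 5.31, 5.40 and 5.55 against 5.68, 5.59 and 5.68 and did not pass (-0.23 ± 0.09, adjusted p = 0.124). Clec11a, a growth factor of blood and bone progenitors, differed by -0.12 ± 0.11 (adjusted p = 0.505), with an interval of -0.38 to 0.14. Clec18a lay between 3.20 and 3.63.

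The sign of a difference went with signal level across the whole array. The median difference over all probe sets was -0.13 for those with a mean level of 3.69 to 4.33 and 0.12 for those at 7.53 to 8.58. At Clec16a, 1453635_at (-0.47) lay where the median over all probe sets was -0.09 and 1455326_at (0.29) where it was 0.08, so both differences were larger than the typical one at their level. The part of the level trend in the Clec values was not tested. Clec5a, at a level where the typical difference was negative, was higher in AKR F1, and after quantile normalization, which gives the arrays one distribution, Clec5a and Clec4n (1425951_a_at) still passed, at 0.76 and 0.43. Clec16a (1453635_at) did not (adjusted p = 0.0618), although its difference was -0.44 against -0.47 as deposited. After median centring of the arrays, 61.9% of all called probe sets were higher in AKR F1, against 49.4% as deposited, and 3 Clec probe sets were higher in that cross and 1 in DBA F1.

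**Figure D4:**
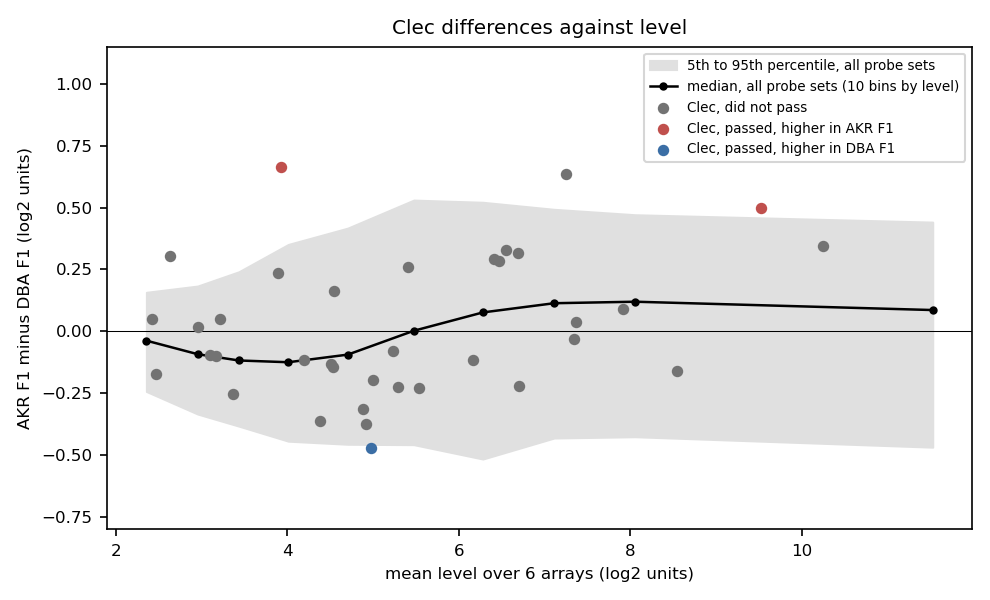
Difference between the crosses against mean level over the 6 arrays (log2 units; points, 36 Clec probe sets; line, median over all 45037 probe sets in 10 bins of level; grey band, 5th to 95th percentile of those bins). Clec5a (0.66) and a dim Clec2h probe set (0.31) lie above the band at low levels, and Clec4n (0.50) and Clec7a (0.64) lie above it at higher levels, while the Clec16a probe set 1453635_at (-0.47) lies just below it.

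In the RefSeq gene order of GRCm38.p6, 19 of the 26 genes lie on the chromosome of Clec4n, many in a pair of runs. The run from Clec4a1 to Clec4e held 6 members with 9 probe sets, of which 1 was higher in AKR F1 and 0 in DBA F1. Next to Clec4n, Clec4d (0.26) and Clec4e (0.23) did not pass. The run from Clec2h to Clec7a held 10 members with 14 probe sets, of which 0 passed in limma, with 7 positive and 7 negative differences. With 10.4% of all probe sets called and so few in each run, nothing particular to either run is read from these counts. Around Clec5a, which lies apart from both runs, Prss37 (-0.19), Mgam (-0.00) and Moxd2 (-0.11) did not pass. Their group means, at most 4.89 (Prss37 in DBA F1), lay under the array medians of 5.04 to 5.10, which limits what they can show. Next to Clec16a, Dexi was higher in AKR F1 (0.39 ± 0.10, adjusted p = 0.0423), Socs1 (0.20) on the other side did not pass, and Prm3, further along, was higher in DBA F1 (-0.43 ± 0.10, adjusted p = 0.0363).

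Over the 6 arrays, the genes outside the family whose pattern was most like that of Clec5a were Mknk1 (Pearson's r = 0.998), Zcchc2 (0.998) and Pgd (0.998), among 18137 probe sets above the median on every array. The points share the division into crosses, so these values are a description. Zcchc2 (0.42) and Pgd (0.44) were higher in AKR F1 and Mknk1 (0.23, adjusted p = 0.0793) did not pass.

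Other facts of the arrays are given beside the family. All spleens carried splenic transcripts, with Tlx1 at 7.56 to 7.80 and Nkx2-5 at 6.01 to 6.13. All 7 erythroid genes measured were higher in DBA F1 (mean level 9.69 to 10.47 against 7.88 to 8.54), and all 8 T cell genes were higher in AKR F1 (8.56 to 8.65 against 8.07 to 8.12). The mean of 8 pancreatic acinar genes was 13.42 to 13.97 in 5 arrays and 6.37 in replicate 3 of DBA F1. Without that array Clec5a passed and Clec4n (1425951_a_at) had a difference of 0.50 (adjusted p = 0.0662). The part of these cell types in the Clec values was not tested.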

How the data were processed

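Total RNA from 6 spleens was hybridised to Affymetrix arrays with a biotin label, per the labels' protocols. The authors brought the values to a common scale before deposit, and the values have the range of log2 signals. RMA and MAS5 were used, per the submitters' processing notes, with no role given; no genome build is named. Values ran from 1.81 to 14.56. Parental variants under probes can alter signal, and this was not tested.

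Groups and replicate numbers come from the sample titles. After 64 control probe sets were left out, 45037 were fitted with limma 3.58.1 (lmFit, eBayes, no covariate; R 4.3.3, data.table version 1.17.8, statmod 1.5.0) with Benjamini-Hochberg adjustment over all of them and a threshold of 0.05. Each label names 1 spleen, and p-values rest on the spread between these samples. An exact permutation test of 3 against 3 cannot go below 0.1. The arrays' number limits precision. The fit was tested on simulated data with 50 changed probe sets at each fold. It recovered 0 at 1.25-fold, 13 at 1.5-fold, 37 at 2-fold and 50 at 4-fold, and called 6 unchanged probe sets. Differences of 1.5-fold or less were thus mostly missed there. Far fewer probe sets were changed there than the 4688 called in the real data, which makes the Benjamini-Hochberg adjustment stricter. The real fit called Clec4n (1425951_a_at) at 1.41-fold and Clec16a (1453635_at) at 1.39-fold. The recovery rates are therefore not carried over to the members. A member that did not pass may still differ, and its interval from limma gives the range.

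Platform annotation gave 1 symbol to 34945 probe sets, several to 932 and none listed here to 9160. All 36 Clec probe sets matched RefSeq (GRCm38.p6) by gene identifier. Every member could be named. Values per array are given for members past the threshold, for measured probe sets of a gene that disagree, and for others near it chosen after their values were seen, as were the neighbouring and marker genes named. The members and gene lists were chosen with earlier results of these data known. For marker lists, 1 probe set per gene (the highest mean) was counted and levels are means of log2 values. Some genes of the signalling list were not analysed here.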

Additional observations from a re-analysis of the deposited data

How the results depend on the processing

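Clec5a passed in every alternative that tested it, Clec4n (1425951_a_at) in all but 5 of the fits without 1 array, and Clec16a (1453635_at) in none of those 6 fits, nor after quantile normalization or with the replicate block. No called difference changed sign. Leaving out 1 array at a time gave 1001 to 4793 called probe sets in all, 1 to 4 Clec probe sets higher in AKR F1, 0 higher in DBA F1 in each of the 6 fits (2 to 7 at an unadjusted p under 0.05 in limma), and 1 to 3 signalling probe sets. Leaving out probe sets under the 40th percentile of level kept 25 of the 36, without Clec5a. Clec probe sets higher in AKR F1 then numbered 1, and 4 with array weights. Those higher in DBA F1 numbered 2 under this filter (Clec4f in addition, adjusted p = 0.0466), 2 with array weights (Clec4f in addition, 0.0419) and 0 after quantile normalization (4 at an unadjusted p under 0.05). With the replicate block, 4658 probe sets were called in all, 3 Clec probe sets were higher in AKR F1 (Clec7a in addition, adjusted p = 0.0466) and 0 in DBA F1 (6 at an unadjusted p under 0.05), and 5 signalling probe sets were called. Same-numbered arrays had deviations correlated at 0.20, 0.11 and 0.05, and arrays with different numbers at -0.16 to 0.06. The labels do not say that the numbers pair, so they were not taken as pairs in the main fit. Clec4n (1419627_s_at) passed with median centring (adjusted p = 0.0458), trended and robust variance (0.0346) and array weights (0.046). Averaging the probe sets of a gene, 3 Clec genes passed, as many as with 1 probe set per gene. At the 60th percentile in place of the median, 13 Clec probe sets counted as measured in place of 21. Signal close to background limits what the 15 dim probe sets can show.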
